A study of Mus musculus with 32 samples.

Results

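The genes described here are the 41 members of 4 families of axon guidance cues and receptors in a mouse RNA-seq study of KAT6B, a histone acetyltransferase: ephrins (5 ephrin-A and 3 ephrin-B genes), Eph receptors (9 EphA and 5 EphB), Slits (3) with their Robo receptors (4), and netrins (4 netrins and 2 netrin-Gs) with the receptors DCC, neogenin and UNC5 (2 and 4). They were taken by gene symbol alone from the 26331 named genes of the count tables, and the rule uses no measured value. The study compared tissue of labelled Kat6b–/– embryos with wild type on an inbred C57BL/6 background, and of Tg(Kat6b) embryos, which carry a transgene that raises Kat6b mRNA, with wild type on a mixed FVBxBALB/c background. Each of the 32 libraries came from dorsal telencephalon at E12.5 or cortex at E15.5 (E for embryonic day). There were 5 labelled knockout and 5 wild-type C57BL/6 libraries at E15.5 and 3 of each at E12.5, and 4 Tg(Kat6b) and 4 wild-type FVBxBALB/c libraries at each age. The labels name no other allele or agent, and the mixed background was used because the transgene could not be kept on an inbred one. The labels give neither the deleted part of Kat6b nor the promoter of the transgene, and they name litter and embryo for C57BL/6 libraries only. All C57BL/6 libraries were sequencing batch 2 and all FVBxBALB/c libraries batch 1, so background and batch cannot be told apart, and age cannot be told apart from the dissected region.

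Ephrins are cell-surface ligands held by a lipid anchor (ephrin-A) or a transmembrane domain (ephrin-B), and they bind Eph receptor tyrosine kinases on neighbouring cells, which often leads to repulsion. Slits are secreted proteins that repel axons through Robo receptors. Netrin-1 attracts axons through DCC and repels them when UNC5 receptors take part, neogenin also binds repulsive guidance molecules, and netrin-Gs are lipid-anchored proteins that bind partners of their own. In the embryonic cortex these families take part in the division of progenitors, the migration of young neurons, the patterning of thalamic input and the steering of axons across the midline.

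The promoters of 3 members that were higher and 3 that were lower at E15.5 than at E12.5 in every age comparison are shown here because those changes were the main result. Each gene has 1 promoter in the RefSeq table (GRCm38.p6, the mm10 assembly), and the 250 bases before the start of that promoter are printed 5′ to 3′. The Unc5a, Epha6 and Robo3 windows lie inside the annotated genes, whose 5′ ends are at bases 54945151, 60610911 and 37433436. That of Epha1 spans the annotated 5′ end of its gene, at base 42373314. Capitals mark CAGNTG on either strand, the E-box form that proneural factors are known to bind; the form CAGCTG reads the same on both strands and was counted once. The first 3 genes were higher at E15.5 and the last 3 lower.
Ntng2 (chr2:29248100-29248349, minus strand): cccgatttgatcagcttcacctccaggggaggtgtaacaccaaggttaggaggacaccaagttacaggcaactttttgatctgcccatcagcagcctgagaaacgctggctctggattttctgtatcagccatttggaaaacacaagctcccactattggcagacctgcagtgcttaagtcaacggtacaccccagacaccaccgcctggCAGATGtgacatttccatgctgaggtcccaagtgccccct
Unc5a (chr13:54949161-54949410, plus strand): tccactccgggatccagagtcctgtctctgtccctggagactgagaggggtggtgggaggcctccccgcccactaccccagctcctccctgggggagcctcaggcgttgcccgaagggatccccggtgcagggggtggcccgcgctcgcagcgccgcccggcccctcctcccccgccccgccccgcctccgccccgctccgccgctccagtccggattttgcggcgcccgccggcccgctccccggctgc
Epha6 (chr16:60605532-60605781, minus strand): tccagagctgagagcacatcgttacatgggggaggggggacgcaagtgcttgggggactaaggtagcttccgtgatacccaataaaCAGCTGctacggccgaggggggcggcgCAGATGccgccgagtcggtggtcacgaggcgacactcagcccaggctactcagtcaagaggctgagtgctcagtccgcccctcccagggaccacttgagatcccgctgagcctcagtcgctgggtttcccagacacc
Robo3 (chr9:37433176-37433425, minus strand): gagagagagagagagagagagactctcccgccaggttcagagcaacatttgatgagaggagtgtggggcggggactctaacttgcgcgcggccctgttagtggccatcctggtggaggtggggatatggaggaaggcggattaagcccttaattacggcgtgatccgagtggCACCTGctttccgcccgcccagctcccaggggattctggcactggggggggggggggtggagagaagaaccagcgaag
Epha1 (chr6:42373269-42373518, minus strand): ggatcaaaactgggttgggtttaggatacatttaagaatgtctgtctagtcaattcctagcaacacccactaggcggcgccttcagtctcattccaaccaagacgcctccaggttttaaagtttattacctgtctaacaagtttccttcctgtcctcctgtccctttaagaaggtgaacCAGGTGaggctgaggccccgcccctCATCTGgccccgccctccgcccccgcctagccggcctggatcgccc
Ephb4 (chr5:137349859-137350108, plus strand): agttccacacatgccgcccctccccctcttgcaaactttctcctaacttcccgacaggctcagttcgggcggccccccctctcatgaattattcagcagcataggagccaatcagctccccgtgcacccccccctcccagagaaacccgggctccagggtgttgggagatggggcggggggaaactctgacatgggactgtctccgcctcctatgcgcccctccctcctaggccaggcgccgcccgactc
CAGNTG stood in the Ntng2 and Epha6 windows among the genes that were higher, and in the Robo3 and Epha1 windows among those that were lower. Over windows of 300 bases (250 before and 50 after the start), 36 of the 41 members matched the table with 41 promoters, and 34.1% of these held CAGNTG, against 51.4% of all 32851 promoters. The share was 38.5% of the 13 promoters of members higher at E15.5 in all 4 age comparisons and 40.0% of the 10 promoters of members lower in all 4. Member promoters held a median of 21 CpG dinucleotides, against 7 over all promoters.

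Library totals over named genes ran from 10383066 to 49508669 counts, and the members took 0.268% to 0.409% of them. Levels are given as CPM (counts scaled by library size) with edgeR's TMM factors, or as RPKM, per kilobase of the deposited gene length, where genes are compared with each other. The markers of dorsal telencephalon Emx1, Emx2, Pax6, Tbr1, Neurod6 and Lhx2 were detected in every group. Libraries at E12.5 also held more RNA of some other tissues. The sums of 6 markers of meninges and mesenchyme were 13.9 to 133 CPM at E15.5, against 173 to 1475 CPM at E12.5. Those of 2 detected erythroid markers were 51.3 to 144 CPM, against 1064 to 7988 CPM. Microglia markers (3 genes) went the other way, at 29.2 to 41.2 CPM at E15.5, against 19.8 to 35.8 CPM at E12.5, and the ages overlapped. A list of 6 markers of diencephalon, midbrain and hindbrain summed to 32 to 282 CPM at E15.5, against 78.9 to 673 CPM at E12.5. None of the meningeal markers was at 0 in every library of any group; among the brain region markers, Hoxb3 was at 0 in labelled knockout, Tg(Kat6b) and FVBxBALB/c wild-type libraries at E15.5 and En1 in C57BL/6 wild-type libraries at E12.5. The labelled knockout replicates 3 and 4 at E15.5 were the most alike of 496 library pairs, with squared differences whose median over genes was 1.92 times counting noise, against 3.1 for the next pair; the labels give them different litters. They held 282 and 271 CPM of the brain region markers, against 35.0 to 41.7 CPM in the other 3 libraries of their group. In replicate 3 the ribosomal RNA gene Rn45s took 17.8% of the counts over named genes, against at most 0.667% in any other library. Its TMM factor was 0.802. The part of this in its values was not tested. The column headers of replicate 5 of labelled knockout and of C57BL/6 wild type at E15.5 name another age, and the tissue label of the first names dorsal telencephalon; both were used as E15.5, and the calls below were also made without them.

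Kat6b itself averaged 154 ± 34.8 CPM in labelled knockout and 170.4 ± 20.7 CPM in wild-type libraries at E12.5 (SD, n = 3 each), and 174 ± 15.1 and 171 ± 17.7 CPM at E15.5 (n = 5 each). The log2 differences, -0.16 ± 0.14 at E12.5 and 0.04 ± 0.11 at E15.5 (SE), did not pass the threshold (adjusted p = 0.918 and 1 by edgeR). A loss of Kat6b was thus not visible in the libraries labelled knockout. Counts over the whole gene do not give the part of it that reads came from, and whether a part was lost was not tested. Kat6b averaged 546 ± 54.6 CPM in Tg(Kat6b) and 177 ± 20.2 CPM in FVBxBALB/c wild-type libraries at E12.5, and 659 ± 77.3 and 183 ± 31.7 CPM at E15.5 (SD, n = 4 each). In Tg(Kat6b) it was 3.09-fold higher than in wild type at E12.5 and 3.62-fold higher at E15.5, with adjusted p values of 1.03e-05 and 1.64e-06 by edgeR.

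Per length, ephrin-B ligands stood highest among the families in C57BL/6 wild-type cortex at E15.5: Efnb2 averaged 78.3 RPKM, Efnb3 66.4 and Efnb1 63.1, each averaged over 5 libraries. Next came the netrin and repulsive guidance receptor Neo1 at 50.7 RPKM, the Eph receptor Epha4 at 49.4, the Slit receptor Robo1 at 40.0 and Ephb2 at 37.4 RPKM. Dcc stood at 23.7 RPKM, while its ligand Ntn1 stood at 10.2 RPKM. The lowest tested member there was Epha1, at 0.161 RPKM. Ntn5 reached at most 12 counts in a library and was not tested; the other 40 members passed the low-count filter in every fit.

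The study's samples hold 4 separate comparisons of E15.5 with E12.5, which share no library. Of the 40 tested members, 18 were higher and 14 lower at E15.5 in labelled knockout embryos (adjusted p below 0.05 by edgeR's quasi-likelihood test, adjusted over all genes), where 56.4% of all 16118 genes were called, 29.4% higher and 27.0% lower. In C57BL/6 wild type 16 were higher and 12 lower, beside 56.8% of all genes (28.6% and 28.2%). In Tg(Kat6b) embryos 15 were higher and 11 lower, beside 46.3% of 15556 genes (23.8% and 22.5%). In FVBxBALB/c wild type 13 were higher and 14 lower, beside 50.1% of all genes (25.1% in each direction). A change of at least 2-fold was called in labelled knockout for 10 members higher, beside 11.5% of all genes, and 4 lower, beside 8.57%. In C57BL/6 wild type the counts were 10 higher (10.5% of all genes) and 4 lower (9.04%), or 14 of 40 members beside 19.6% of all genes. Tg(Kat6b) embryos had 8 higher (8.04%) and 7 lower (7.44%), and FVBxBALB/c wild type had 7 higher (8.49%) and 8 lower (9.24%). Each family held members of both directions except the netrins proper, where Ntn4 was the sole member called in any of them, and the netrin-Gs, DCC and neogenin, where none was lower.

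The same direction in all 4 comparisons was called for 21 of the 40 members, 11 higher and 10 lower, beside 35.2% of the 15448 genes tested in both backgrounds (19.3% higher and 15.9% lower). Leaving out any 1 library kept all calls of 18 of the 21, and Efna5, Epha4 and Ephb3 lost at least 1. No member was called in opposite directions, 15 were called in 1 to 3 comparisons, and Epha10, Ntn1, Ntn3 and Ntng1 in none (27.5% of all genes were called in none). Levels of the 18 E15.5 and 14 E12.5 libraries did not overlap for 12 of 40 members, 8 higher and 4 lower, beside 17.2% of all 16399 genes. In whole tissue, fewer cells of a type and less RNA per cell cannot be told apart. The markers of the tissue's own cells moved with age too: 4 markers of cortical neurons summed to 4102 to 4894 CPM at E15.5, against 1501 to 2743 CPM at E12.5. The sums of 4 apical progenitor markers were 1002 to 1490 CPM at E15.5, against 1912 to 2773 CPM at E12.5. Those of 4 Cajal-Retzius markers were 258 to 719 CPM, against 154 to 253 CPM. None of these 3 lists overlapped between ages. The part of these lists, and of the other tissues' markers given above, in the age comparisons was not tested.

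**Figure D1:**
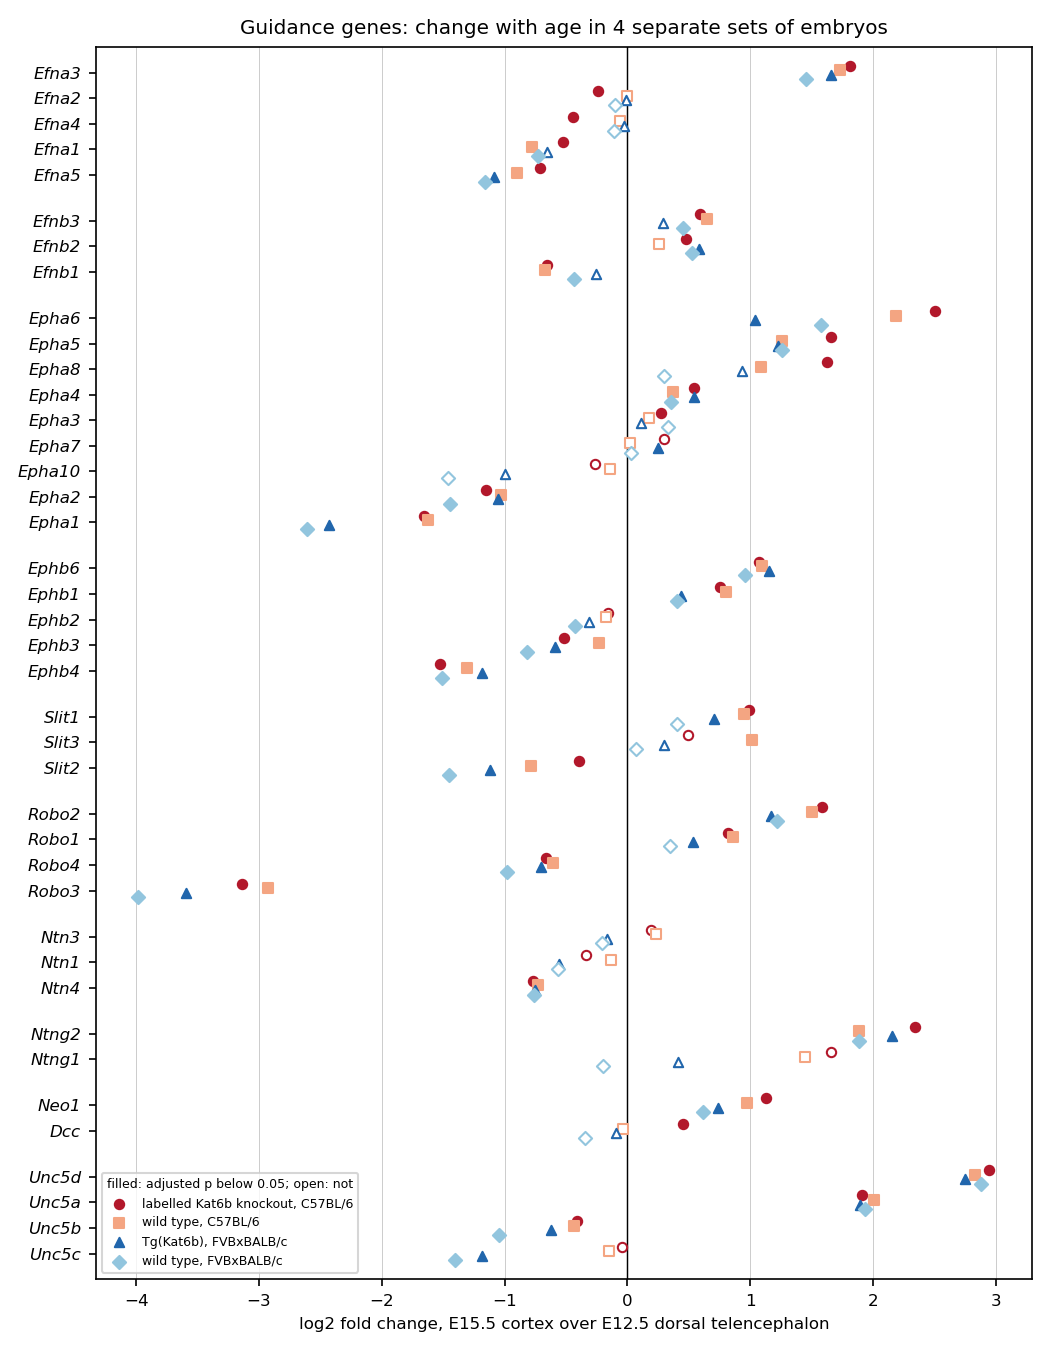
Log2 fold change of E15.5 over E12.5 (x axis) for the 40 tested members (rows, grouped by family and ordered by mean change), with 1 symbol for each of the 4 age comparisons; filled symbols had an adjusted p below 0.05 by edgeR. Unc5d lies furthest to the right and Robo3 furthest to the left in all 4 comparisons, and 21 rows have 4 filled symbols on the same side of 0.

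Among the ephrin-A ligands, Efna3 was higher at E15.5 in all 4 comparisons. Its level ran from 11.2 to 24.2 CPM in the 18 E15.5 libraries (median 18), against 3.02 to 6.85 CPM in the 14 E12.5 libraries (median 5.85), with no overlap. The log2 fold changes were 1.81 ± 0.18 in labelled knockout, 1.74 ± 0.18 in C57BL/6 wild-type, 1.66 ± 0.24 in Tg(Kat6b) and 1.46 ± 0.24 in FVBxBALB/c wild-type embryos (SE; adjusted p at most 1.10e-04 by edgeR). Efna5, a ligand known for graded expression in cortex and its inputs, was lower at E15.5, at 14 to 36.9 CPM in the 18 E15.5 libraries (median 21.6), against 33.2 to 72.9 CPM in the 14 E12.5 libraries (median 46.1), and the ages overlapped. Its log2 fold changes were -0.71 ± 0.25 in labelled knockout, -0.90 ± 0.25 in C57BL/6 wild-type, -1.08 ± 0.25 in Tg(Kat6b) and -1.16 ± 0.25 in FVBxBALB/c wild-type embryos (SE; adjusted p at most 0.0232 by edgeR). The labelled knockout replicates 3 and 4, with the brain region markers given above, held 36.5 and 33.8 CPM of Efna5, against 17.1 to 19.1 CPM in the other 3. Without both, the change in labelled knockout was -1.17 (adjusted p = 1.12e-04 by edgeR); its call was lost without labelled knockout replicate 1 or 3 at E12.5, or 1, 2 or 5 at E15.5, with an adjusted p of at most 0.0848.

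Efna1 was lower in 3 comparisons, at -0.52 in labelled knockout, -0.77 in C57BL/6 wild type and -0.73 in FVBxBALB/c wild type on the log2 scale; in Tg(Kat6b) it was -0.65 ± 0.26 (SE) with an adjusted p of 0.0521 by edgeR. Without FVBxBALB/c wild-type replicate 4 at E12.5 its change there was -0.42 and not called, nor was it called without replicate 1 or 2 at E15.5, or in labelled knockout without replicate 1 or 3 at E12.5. Efna2 and Efna4 passed the threshold as lower in labelled knockout alone, at -0.24 and -0.44 on the log2 scale, where the other 3 comparisons gave between -0.11 and 0.00. The difference in this age effect between labelled knockout and wild type was -0.24 for Efna2 and -0.39 for Efna4, and neither passed the threshold (adjusted p = 1 by edgeR). The Efna2 call was lost without labelled knockout replicate 4 at E12.5.

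Among the ephrin-B ligands, Efnb2, a ligand of EphB receptors and Epha4, was higher at E15.5 in 3 comparisons, at 0.48 in labelled knockout, 0.59 in Tg(Kat6b) and 0.53 in FVBxBALB/c wild type on the log2 scale; in C57BL/6 wild type it was 0.26 ± 0.12 (SE; adjusted p = 0.0872 by edgeR). Efnb3 was higher in 3 comparisons (0.45 to 0.65) and Efnb1 lower in 3 (-0.67 to -0.44). In Tg(Kat6b) the values were 0.29 ± 0.16 for Efnb3 and -0.26 ± 0.13 for Efnb1, with adjusted p values of 0.153 and 0.117 by edgeR. The Efnb3 call was lost in labelled knockout without replicates 3 and 4 at E15.5 (adjusted p = 0.0572 by edgeR), and that in FVBxBALB/c wild type without replicate 2 or 4 at E12.5 or 2, 3 or 4 at E15.5.

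EphA receptors held members that were higher at E15.5 and others that were lower. Epha5, which binds ephrin-A ligands, ran from 213 to 413 CPM in the 18 E15.5 libraries (median 286), against 78.4 to 176 CPM in the 14 E12.5 libraries (median 117), with no overlap. With age it changed on the log2 scale by 1.66 ± 0.12 in labelled knockout, 1.26 ± 0.12 in C57BL/6 wild-type, 1.22 ± 0.19 in Tg(Kat6b) and 1.26 ± 0.20 in FVBxBALB/c wild-type embryos (SE; adjusted p at most 8.80e-05 by edgeR). Epha6 was at a much lower level, from 1.55 to 5.62 CPM in the 18 E15.5 libraries (median 3.56), against 0.356 to 1.28 CPM in the 14 E12.5 libraries (median 0.772), again with no overlap. Its log2 fold changes were 2.51 ± 0.23 in labelled knockout, 2.19 ± 0.22 in C57BL/6 wild-type, 1.04 ± 0.32 in Tg(Kat6b) and 1.58 ± 0.32 in FVBxBALB/c wild-type embryos (SE; adjusted p at most 0.0149 by edgeR). Epha4, the most abundant EphA receptor per length, rose by 0.36 to 0.55 on the log2 scale in all 4 comparisons. Its call was lost in C57BL/6 wild type without replicate 4 at E12.5 and in FVBxBALB/c wild type without replicate 1 at either age, with adjusted p values of at most 0.0616 and 0.0744 by edgeR.

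Epha1 and Epha2 were lower at E15.5. Epha1 ran from 0.243 to 0.822 CPM in the 18 E15.5 libraries (median 0.427), against 0.848 to 4.07 CPM in the 14 E12.5 libraries (median 1.59), with no overlap, and its log2 fold changes were -1.66 ± 0.28 in labelled knockout, -1.62 ± 0.29 in C57BL/6 wild-type, -2.43 ± 0.50 in Tg(Kat6b) and -2.61 ± 0.49 in FVBxBALB/c wild-type embryos (SE). At E15.5 Epha1 had only 3 to 8 counts per library in Tg(Kat6b) and 3 to 10 in FVBxBALB/c wild type. At E12.5 it had 33 to 93 and 25 to 172 counts. It passed the low-count filter in that background through its E12.5 libraries, so the size of the fall there is imprecise. The highest Epha1 values at E12.5 were 4.07 CPM in Tg(Kat6b) replicate 4 and 3.41 CPM in FVBxBALB/c wild-type replicate 4. Those libraries held 836 and 1366 CPM of the meningeal markers, and the other E12.5 libraries of their groups 173 to 381 and 256 to 828 CPM. Their erythroid markers summed to 3514 and 7988 CPM, against 1201 to 2095 and 2023 to 2177 CPM in the others. The part of either list in the Epha1 values was not tested. Epha2 ran from 1.55 to 4.17 CPM in the 18 E15.5 libraries (median 2.77), against 3.58 to 8.71 CPM in the 14 E12.5 libraries (median 5.42), and its log2 fold changes were -1.15 ± 0.17 in labelled knockout, -1.03 ± 0.17 in C57BL/6 wild-type, -1.05 ± 0.21 in Tg(Kat6b) and -1.45 ± 0.21 in FVBxBALB/c wild-type embryos (SE; adjusted p at most 5.05e-04 by edgeR). Epha8 was higher in both C57BL/6 comparisons, at 1.62 ± 0.43 in labelled knockout and 1.09 ± 0.43 in wild type (log2, SE); without labelled knockout replicate 4 at E12.5 the first was 2.48, and the second was not called without any of wild-type replicates 1, 3 and 4 at E12.5 or 1, 2 and 5 at E15.5. Epha3 passed the threshold in labelled knockout alone (0.27) and Epha7 in Tg(Kat6b) alone (0.25), each with an interaction with genotype that did not pass (adjusted p = 1 by edgeR), and both calls were lost without single libraries. For Epha3 these were labelled knockout replicates 1 and 3 at E12.5 and 1, 2 and 5 at E15.5; for Epha7 they were Tg(Kat6b) replicates 2, 3 and 4 at both ages. DESeq2 did not call Epha3 (adjusted p = 0.0562).

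EphB receptors split in the same manner. Ephb6, a receptor without kinase activity, ran from 28.7 to 64.4 CPM in the 18 E15.5 libraries (median 49.5), against 12.6 to 32.8 CPM in the 14 E12.5 libraries (median 18.7), and it changed on the log2 scale by 1.08 ± 0.15 in labelled knockout, 1.10 ± 0.16 in C57BL/6 wild-type, 1.16 ± 0.12 in Tg(Kat6b) and 0.96 ± 0.12 in FVBxBALB/c wild-type embryos (SE; adjusted p at most 1.82e-05 by edgeR). Ephb1 was higher by 0.41 to 0.80 in all 4 comparisons. Ephb4, a receptor for ephrin-B2 best known from veins, was lower at E15.5, from 17.9 to 28.4 CPM in the 18 E15.5 libraries (median 22.8), against 37 to 83 CPM in the 14 E12.5 libraries (median 53.7), with no overlap. The log2 changes of Ephb4 were -1.53 ± 0.15 in labelled knockout, -1.31 ± 0.15 in C57BL/6 wild-type, -1.18 ± 0.17 in Tg(Kat6b) and -1.51 ± 0.18 in FVBxBALB/c wild-type embryos (SE; adjusted p at most 3.94e-05 by edgeR). Ephb3 fell in all 4, by 0.23 to 0.81 on the log2 scale, and its call in C57BL/6 wild type (adjusted p = 0.0484 by edgeR) was lost without any 1 of the 8 libraries of that comparison. Ephb2 was called in FVBxBALB/c wild type alone (-0.42), a call lost without replicate 1 or 3 at E12.5 or any 1 replicate at E15.5. The other 3 values were -0.31 to -0.16, and the interaction with genotype in that background, 0.11, did not pass (adjusted p = 1 by edgeR). In labelled knockout Ephb2 was -0.31 and called (adjusted p = 0.0153 by edgeR) without replicates 3 and 4 at E15.5.

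The Slit ligands differed among themselves. Slit2 was lower at E15.5, from 32.9 to 59.6 CPM in the 18 E15.5 libraries (median 45.2), against 64.6 to 125 CPM in the 14 E12.5 libraries (median 82), with no overlap. In C57BL/6 embryos it held 46.8, 43.8, 59.6, 57.7 and 45.3 CPM in labelled knockout and 46.7, 53.1, 45.5, 48.7 and 45.1 CPM in wild type at E15.5. At E12.5 the values were 71.6, 69.2 and 64.6 CPM in labelled knockout and 103, 71.9 and 74.8 CPM in wild type. Its log2 fold changes with age were -0.40 ± 0.12 in labelled knockout, -0.78 ± 0.12 in C57BL/6 wild-type, -1.12 ± 0.15 in Tg(Kat6b) and -1.45 ± 0.15 in FVBxBALB/c wild-type embryos (SE; adjusted p at most 0.0107 by edgeR). Slit1 was higher in both C57BL/6 comparisons (0.99 and 0.95) and in Tg(Kat6b) (0.71), the last a call lost without Tg(Kat6b) replicate 2, 3 or 4 at E12.5 or 1, 2 or 3 at E15.5; in FVBxBALB/c wild type it was 0.41 ± 0.25 (SE) with an adjusted p of 0.193 by edgeR. Slit3 was called in C57BL/6 wild type alone (1.02), not without replicate 3 at E12.5, and the other values were 0.07 to 0.49; its interaction with genotype, -0.52, did not pass (adjusted p = 1 by edgeR).

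Of the Robo receptors, Robo3, which keeps commissural axons from responding to Slit before they cross the midline, changed most of all 40 members. It held 6.65, 7.04, 10.9, 9.59 and 7.16 CPM in labelled knockout and 6.96, 11.3, 6.59, 5.56 and 4.18 CPM in C57BL/6 wild-type libraries at E15.5. At E12.5 it held 77, 65.8 and 79.2 CPM in labelled knockout and 49, 66.1 and 45.2 CPM in wild type. In the FVBxBALB/c background the E15.5 values were 4.60, 3.27, 2.83 and 1.26 CPM in Tg(Kat6b) and 1.17, 5.67, 5.05 and 1.88 CPM in wild type, and every E15.5 library in the study lay below every E12.5 library. At E12.5 that background held 58.6, 29.6, 25.7 and 32.8 CPM in Tg(Kat6b) and 74.6, 73, 58.7 and 27.9 CPM in wild type. The log2 fold changes with age were -3.14 ± 0.24 in labelled knockout, -2.93 ± 0.24 in C57BL/6 wild-type, -3.59 ± 0.45 in Tg(Kat6b) and -3.98 ± 0.45 in FVBxBALB/c wild-type embryos (SE; adjusted p at most 9.34e-06 by edgeR).

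Robo4, the Robo of blood vessels, lies on chromosome 9 with its 3′ end 2021 bases from that of Robo3, and the annotated genes do not overlap. It was lower at E15.5 too, from 3.48 to 9.65 CPM in the 18 E15.5 libraries (median 6.02), against 6.75 to 13.3 CPM in the 14 E12.5 libraries (median 9.67), with log2 fold changes of -0.66 in labelled knockout, -0.60 in C57BL/6 wild-type, -0.71 in Tg(Kat6b) and -0.98 in FVBxBALB/c wild-type embryos. A list of 3 endothelial markers (Cldn5, Pecam1 and Cdh5) summed to 55.7 to 107 CPM at E15.5, against 68.7 to 125 CPM at E12.5. Robo2, a neuronal Slit receptor, was higher at E15.5, from 255 to 401 CPM in the 18 E15.5 libraries (median 294), against 79.6 to 188 CPM in the 14 E12.5 libraries (median 113), with no overlap. The log2 changes of Robo2 were 1.58 ± 0.10 in labelled knockout, 1.51 ± 0.10 in C57BL/6 wild-type, 1.17 ± 0.17 in Tg(Kat6b) and 1.22 ± 0.17 in FVBxBALB/c wild-type embryos (SE; adjusted p at most 3.84e-05 by edgeR). Robo1, its neighbour on chromosome 16, was higher in 3 comparisons (0.53 to 0.86) and 0.35 ± 0.19 (SE) in FVBxBALB/c wild type, where its adjusted p was 0.127 by edgeR. The Robo1 call in Tg(Kat6b) was lost without replicate 2 or 3 at E12.5 or 1, 3 or 4 at E15.5.

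**Figure D2:**
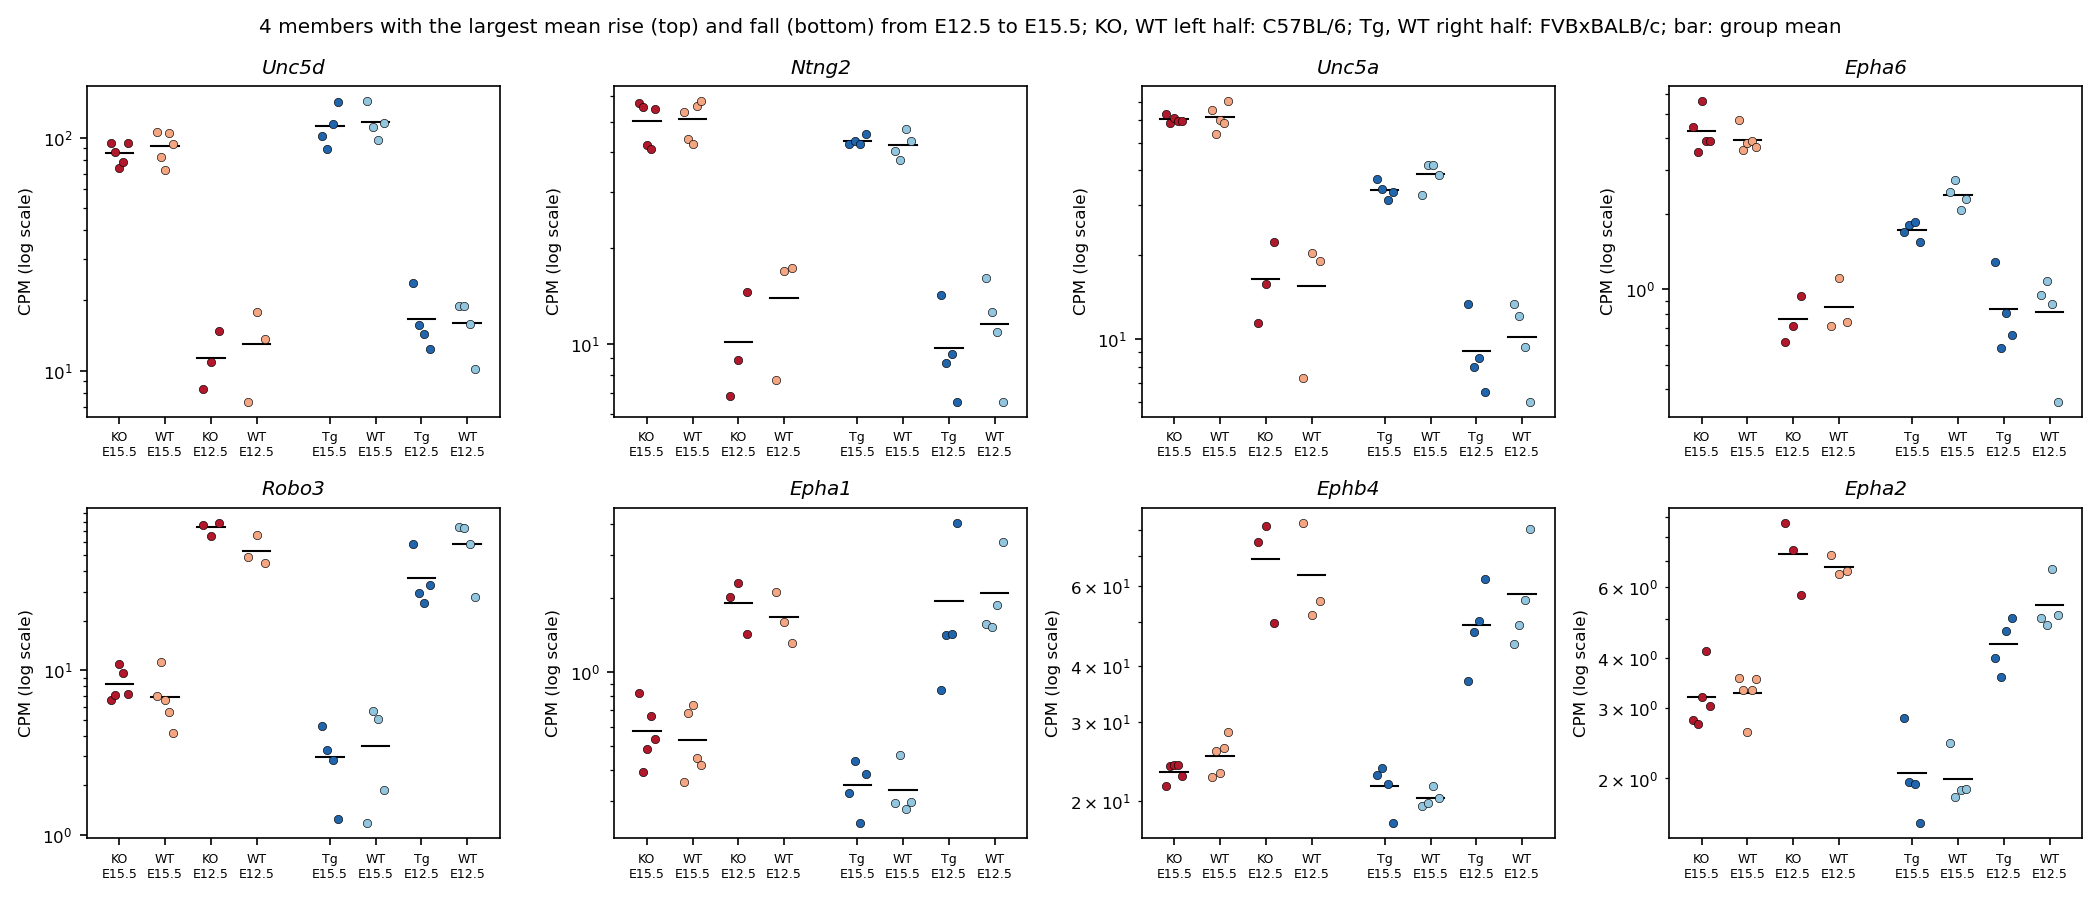
CPM of each library (points, log scale) and group means (bars) for the 4 members with the largest mean rise (top row) and fall (bottom row) with age, in the order labelled knockout and wild type of C57BL/6 at E15.5 and E12.5, then Tg(Kat6b) and wild type of FVBxBALB/c. In each panel except that for Epha2 every E15.5 library lies on one side of every E12.5 library. Labelled knockout or transgenic points mostly lie among or close to those of their wild type. For Epha6 at E15.5 every Tg(Kat6b) point lies below those of wild type, and for Robo3 at E12.5 the points of these genotypes overlap. Neither difference was called.

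Among the netrins, Ntn4, also known from vascular basement membranes, was lower at E15.5 in all 4 comparisons, with log2 changes of -0.76, -0.73, -0.75 and -0.76 in labelled knockout, C57BL/6 wild-type, Tg(Kat6b) and FVBxBALB/c wild-type embryos (adjusted p at most 3.98e-04 by edgeR). Its level ran from 12 to 22.1 CPM in the 18 E15.5 libraries (median 16.4), against 18.6 to 33.1 CPM in the 14 E12.5 libraries (median 27.9). Ntn1, the ligand of DCC and UNC5 receptors, gave -0.33 in labelled knockout, -0.13 in C57BL/6 wild-type, -0.56 in Tg(Kat6b) and -0.56 in FVBxBALB/c wild-type embryos, none of them called. Tg(Kat6b) replicate 4 at E15.5 held 12.4 CPM of Ntn1, and the other 3 libraries of that group 59.4 to 68.8 CPM. That library also had the lowest summed ventral telencephalon markers of its group (256 CPM, against 547 to 704 CPM in the other 3).

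Ntng2, a netrin-G that binds the neuronal adhesion protein Lrrc4, ran from 37.9 to 58 CPM in the 18 E15.5 libraries (median 43.8), against 6.57 to 17.3 CPM in the 14 E12.5 libraries (median 10.1), with no overlap. Its log2 fold changes were 2.34 ± 0.27 in labelled knockout, 1.88 ± 0.27 in C57BL/6 wild-type, 2.16 ± 0.23 in Tg(Kat6b) and 1.89 ± 0.23 in FVBxBALB/c wild-type embryos (SE; adjusted p at most 2.66e-05 by edgeR). Ntng1 was not called in any of the 4, at 1.66 ± 0.72 in labelled knockout, 1.45 ± 0.72 in C57BL/6 wild-type, 0.41 ± 0.36 in Tg(Kat6b) and -0.20 ± 0.35 in FVBxBALB/c wild-type embryos (log2, SE). At E15.5 it held 7.09, 9.58, 44, 42 and 10.3 CPM in labelled knockout and 8.21, 28.4, 21.6, 9.97 and 10.5 CPM in C57BL/6 wild-type libraries. The libraries above 20 CPM were labelled knockout replicates 3 and 4 and wild-type replicates 2 and 3, which held 282, 271, 252 and 133 CPM of the brain region markers; the other 14 E15.5 libraries held 7.09 to 11.6 CPM of Ntng1 and at most 72.8 CPM of the markers. Without labelled knockout replicates 3 and 4 the Ntng1 change with age in labelled knockout was 0.33.

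**Figure D3:**
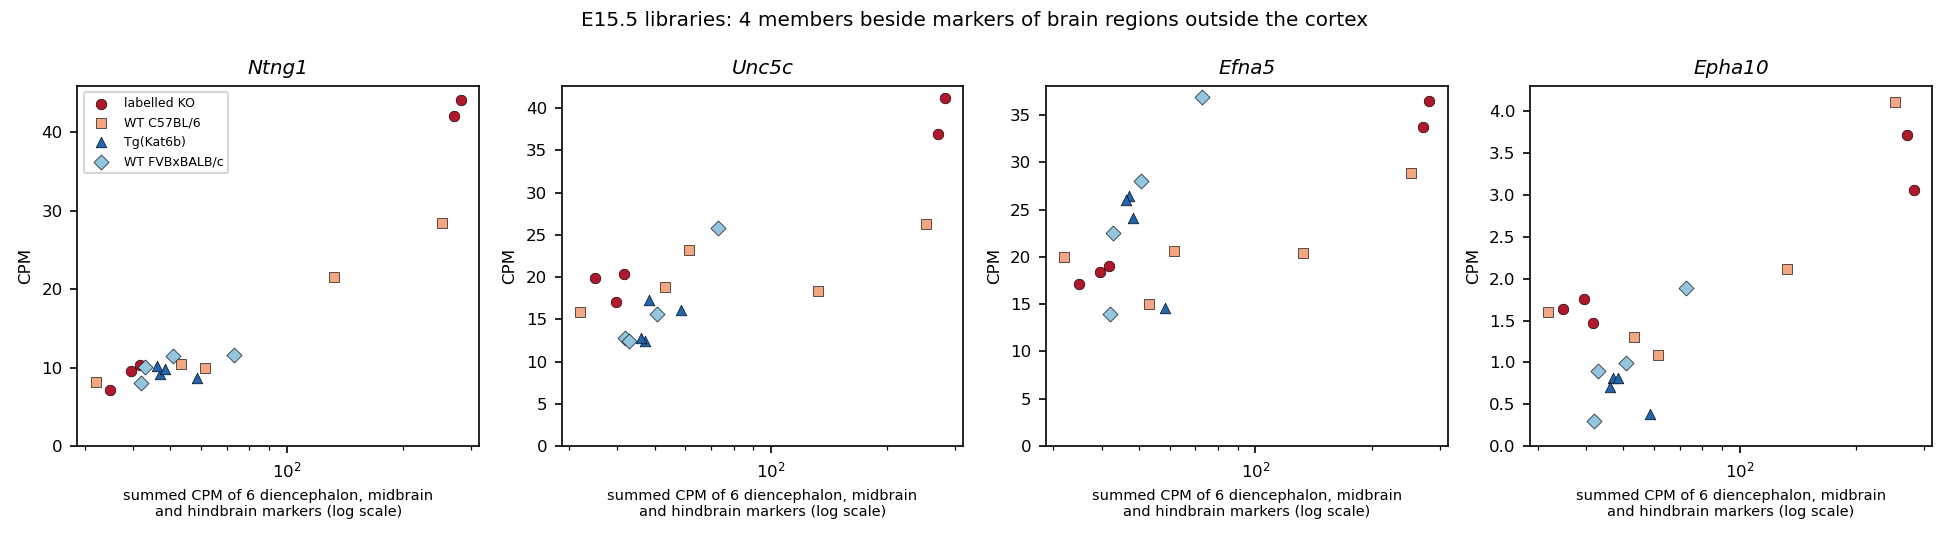
CPM of 4 members (y axis) beside the summed CPM of 6 diencephalon, midbrain and hindbrain markers (x axis, log scale) in the 18 E15.5 libraries, with 1 symbol per group; the 4 genes were chosen after their values were seen. Labelled knockout replicates 3 and 4 lie furthest to the right, at 282 and 271 CPM, with the highest values of Ntng1 and Unc5c, and C57BL/6 wild-type replicate 2, at 252 CPM, is next. Meningeal, endothelial and forebrain markers set labelled knockout replicates 3 and 4 apart too, and the part of any list in these values was not tested.

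Of the netrin receptors, Neo1 was higher at E15.5 in all 4 comparisons. It ran from 323 to 442 CPM in the 18 E15.5 libraries (median 372), against 170.2 to 268 CPM in the 14 E12.5 libraries (median 203), with no overlap, and its log2 fold changes were 1.13 ± 0.08 in labelled knockout, 0.97 ± 0.08 in C57BL/6 wild-type, 0.74 ± 0.12 in Tg(Kat6b) and 0.62 ± 0.12 in FVBxBALB/c wild-type embryos (SE; adjusted p at most 3.48e-04 by edgeR). Dcc passed the threshold in labelled knockout alone, at 0.46 ± 0.12 (SE; adjusted p = 0.00307 by edgeR). Its values were -0.03 in C57BL/6 wild type, -0.09 in Tg(Kat6b) and -0.34 in FVBxBALB/c wild type. The difference of the Dcc age effect between labelled knockout and wild type, 0.49 ± 0.16 (SE), did not pass the threshold (adjusted p = 1 by edgeR).

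The UNC5 receptors, which mediate netrin repulsion and also bind FLRT proteins, went both ways. Unc5d, known from migrating upper-layer neurons and their precursors, had the largest rise of the 40 members. At E15.5 it held 95, 86.9, 74.2, 78.8 and 94.4 CPM in labelled knockout and 106, 82.8, 72.4, 104 and 93.6 CPM in C57BL/6 wild type. At E12.5 it held 8.38, 10.9 and 14.8 CPM in labelled knockout and 7.35, 17.9 and 13.7 CPM in C57BL/6 wild type. In the FVBxBALB/c background the E15.5 values were 102, 89.7, 114 and 143 CPM in Tg(Kat6b) and 143, 111, 97.9 and 115 CPM in wild type, and the E12.5 values 23.8, 15.8, 14.4 and 12.4 CPM in Tg(Kat6b) and 18.9, 19, 15.9 and 10.1 CPM in wild type. All E15.5 libraries thus lay above all E12.5 libraries, with log2 fold changes of 2.95 ± 0.25 in labelled knockout, 2.83 ± 0.25 in C57BL/6 wild-type, 2.75 ± 0.23 in Tg(Kat6b) and 2.88 ± 0.23 in FVBxBALB/c wild-type embryos (SE; adjusted p at most 3.06e-07 by edgeR).

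Unc5a was also higher at E15.5, from 31.2 to 70.3 CPM in the 18 E15.5 libraries (median 56.1), against 6.00 to 22.1 CPM in the 14 E12.5 libraries (median 11.8), with no overlap and log2 fold changes of 1.92 in labelled knockout, 2.01 in C57BL/6 wild-type, 1.89 in Tg(Kat6b) and 1.94 in FVBxBALB/c wild-type embryos. Unc5b was lower in all 4, at -0.41 in labelled knockout, -0.43 in C57BL/6 wild type, -0.62 in Tg(Kat6b) and -1.05 in FVBxBALB/c wild type. Unc5c was lower in the FVBxBALB/c background, at -1.18 ± 0.28 in Tg(Kat6b) and -1.40 ± 0.28 in wild type (log2, SE). In C57BL/6 embryos Unc5c was -0.04 ± 0.31 in labelled knockout and -0.15 ± 0.31 in wild type. The difference of the wild-type age effects on Unc5c, -1.23 ± 0.45 (FVBxBALB/c minus C57BL/6, SE), did not pass the threshold (adjusted p = 0.639 by edgeR). At E15.5 the labelled knockout replicates 3 and 4 held 41.2 and 37.0 CPM of Unc5c, and the other 3 libraries of the group 17.1 to 20.3 CPM; without both, the change in labelled knockout was -0.55 (adjusted p = 0.0986 by edgeR).

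A list of 47 other genes that bind or signal from these cues was all tested. At E15.5, 30 were higher and 7 lower in labelled knockout, 28 and 10 in C57BL/6 wild type, 27 and 8 in Tg(Kat6b), and 25 and 10 in FVBxBALB/c wild type, beside the background percentages given above. The list's median log2 change was 0.40 in labelled knockout, 0.44 in C57BL/6 wild type, 0.35 in Tg(Kat6b) and 0.37 in FVBxBALB/c wild type, where the median over all genes was between -0.03 and -0.01. The medians of the guidance genes were 0.28, 0.10, 0.05 and -0.10 in the same order. In all 4 comparisons 24 of the list were higher and 6 lower. Genes with large rises included Ablim3, an actin-binding protein (2.88 in labelled knockout, 2.88 in C57BL/6 wild-type, 2.31 in Tg(Kat6b) and 2.55 in FVBxBALB/c wild-type embryos), and Ngef, an exchange factor that acts downstream of EphA receptors (2.92 in labelled knockout, 2.69 in C57BL/6 wild-type, 2.57 in Tg(Kat6b) and 2.36 in FVBxBALB/c wild-type embryos). Of the 6 lower in all 4, the largest falls by mean were those of the exchange factor Dock1 (-0.68 in labelled knockout, -0.95 in C57BL/6 wild-type, -0.60 in Tg(Kat6b) and -0.82 in FVBxBALB/c wild-type embryos), the proteoglycan Gpc1 and the adaptor Nck1.

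Comparison of genotypes at each age asked whether these genes differed in embryos labelled as lacking or overexpressing Kat6b. In labelled knockout against wild type 0 of the 40 members were called at E12.5 and 0 at E15.5 by edgeR's quasi-likelihood test, beside 0.00620% of all genes at E12.5 and 0% at E15.5. In Tg(Kat6b) against wild type 0 of 40 were called at E12.5 and 0 at E15.5, beside 0.0129% of all genes at each age. DESeq2 and limma-voom also called 0 members in each of the 4 comparisons. Unadjusted p values below 0.05 were found for 6 members in labelled knockout at E12.5 and 3 at E15.5, and for 6 in Tg(Kat6b) at E12.5 and 0 at E15.5; over all genes the shares were 5.22%, 2.83%, 6.68% and 2.22%. With labelled knockout replicates 3 and 4 at E15.5 left out, or summed to 1 library, 0 members were called too, but leaving both out turned the sign of several differences that were not called. The 4 largest shifts were those of Ntng1 (-0.82 without both, 0.51 with all libraries), Epha10 (-0.37 and 0.15), Unc5c (-0.10 and 0.40) and Efna5 (-0.21 and 0.25), the genes plotted against the brain region markers.

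The 95% interval of the fold change lay within 2-fold in either direction for 33 of 40 members in labelled knockout at E12.5, 37 at E15.5, 36 in Tg(Kat6b) at E12.5 and 35 at E15.5. Within 1.5-fold it lay for 20, 32, 18 and 24 members. Epha8 and Epha10 fell outside the 2-fold range in all 4 comparisons, Ntng1 in 3 (all but Tg(Kat6b) at E15.5) and Robo3 in 3 (all but labelled knockout at E15.5). Median log2 changes of the 40 members were 0.05 in labelled knockout at E12.5, 0.04 at E15.5, -0.13 in Tg(Kat6b) at E12.5 and 0.03 at E15.5, and over all genes between -0.01 and 0.01.

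**Figure D4:**
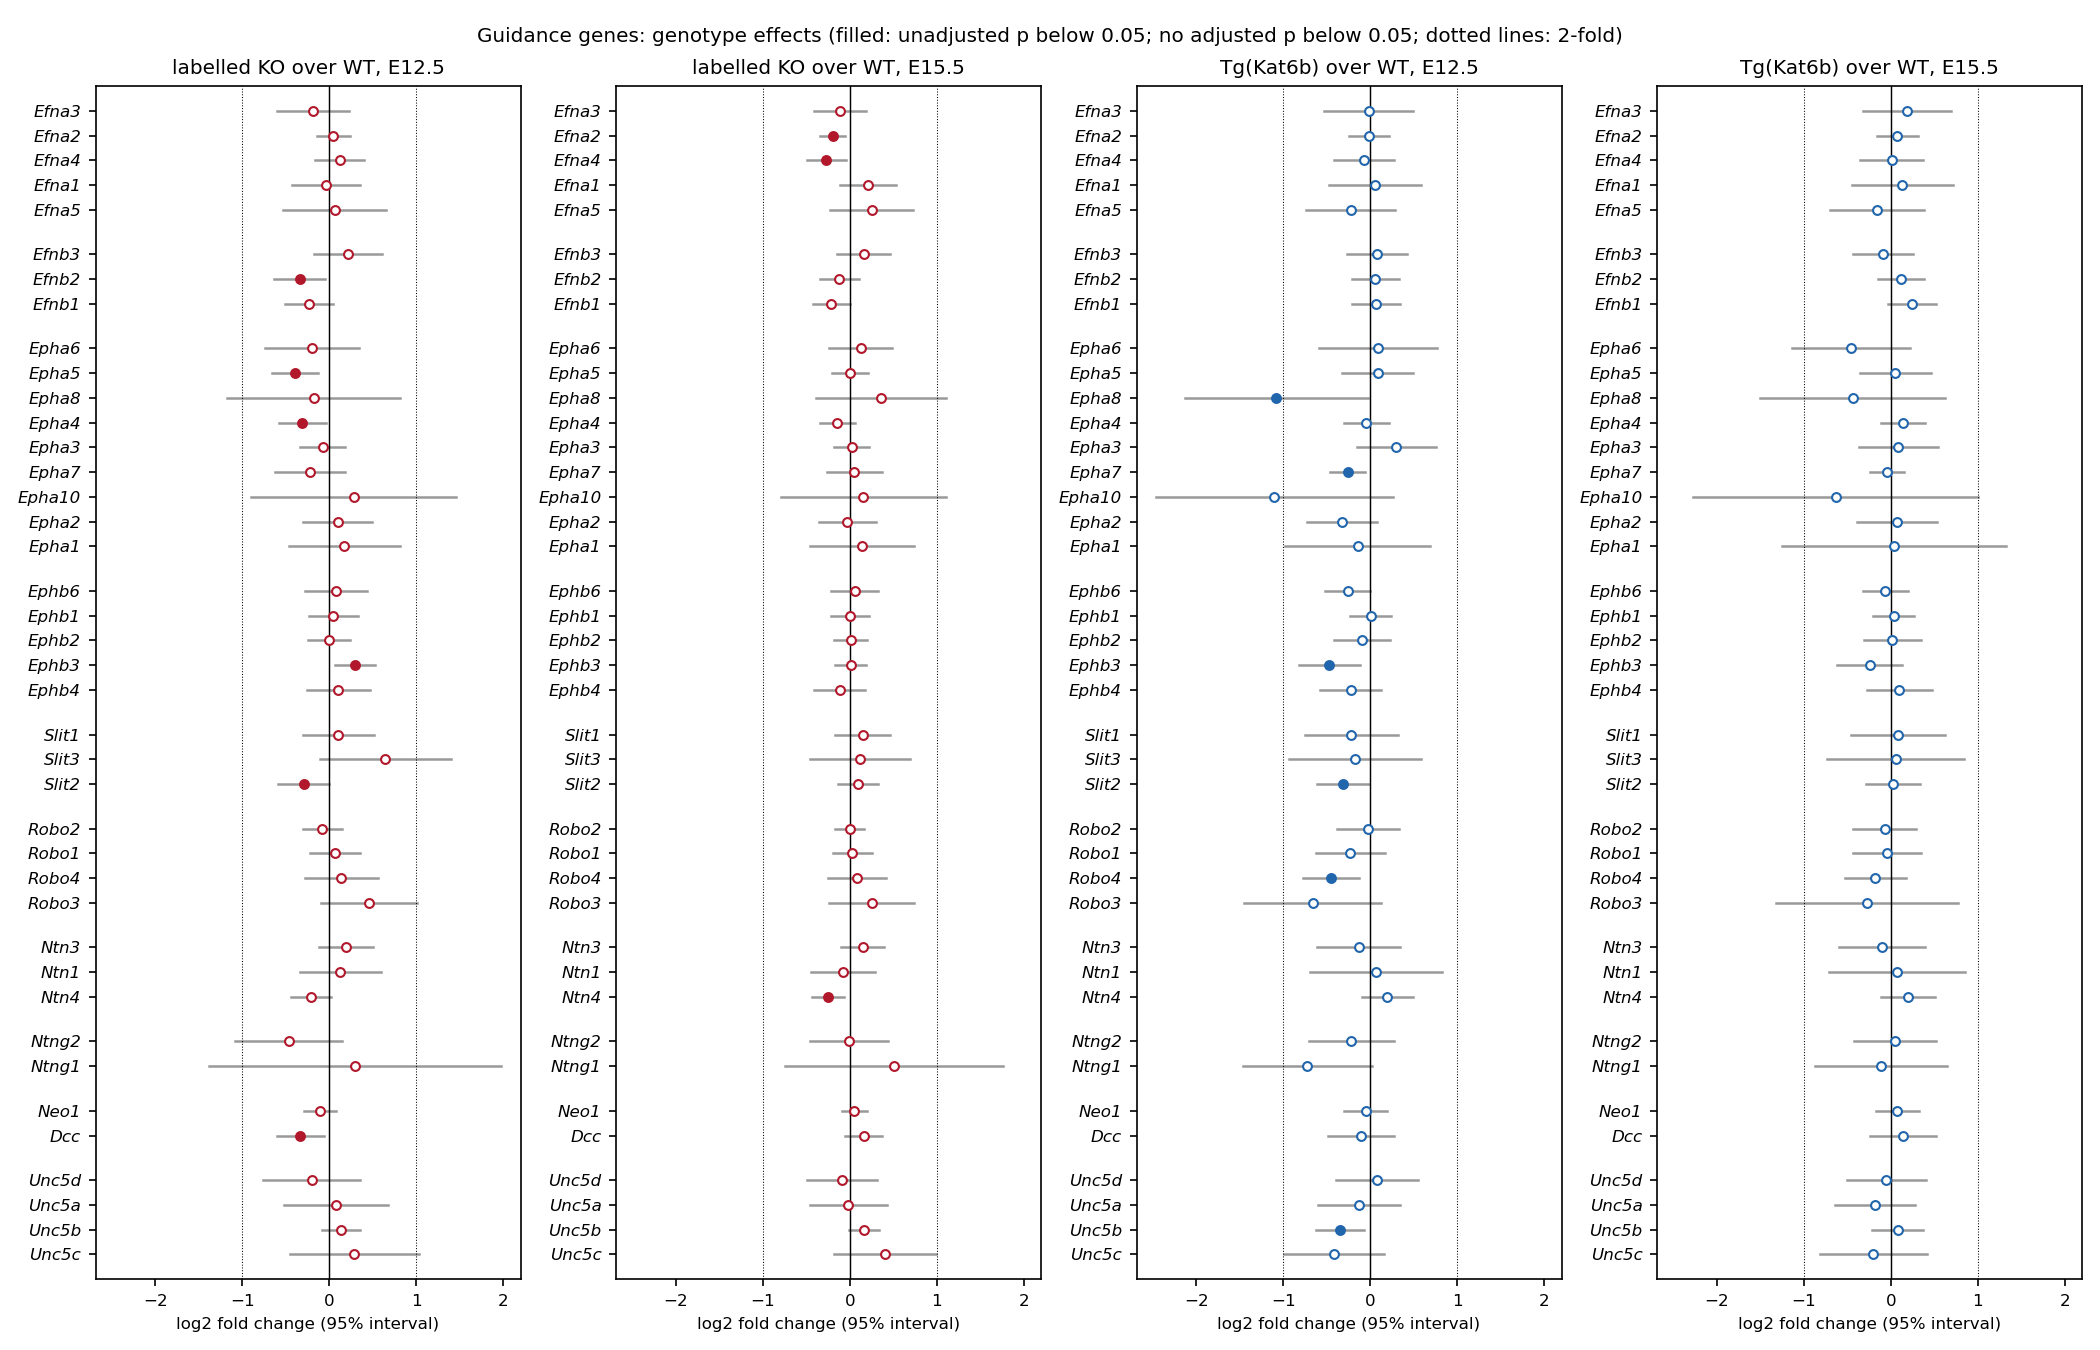
Log2 fold change with 95% interval (x axis) of the 40 tested members in each genotype comparison, 1 panel each; filled points had an unadjusted p below 0.05, and dotted lines mark 2-fold in each direction. No member had an adjusted p below 0.05, and most intervals lie between the dotted lines, apart from those of Epha8, Epha10, Ntng1, Robo3 and a few others.

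At E12.5 the smallest p values in labelled knockout were those of Epha5, Ephb3 and Dcc. Epha5 held 78.4, 89 and 96.9 CPM in labelled knockout, against 106, 129.7 and 110.4 CPM in wild type. No labelled knockout value reached the wild-type range, and the log2 fold change was -0.40 ± 0.13 (SE), with unadjusted p = 0.00581 and adjusted p = 0.881 by edgeR. Ephb3 held 29.2, 37.2 and 31.6 CPM, against 25.1, 25.6 and 28.7 CPM in wild type, and its log2 difference of 0.30 ± 0.11 was 0.19 without labelled knockout replicate 3. Dcc held 199, 204 and 205 CPM, against 293, 243 and 225 CPM in wild type, and its log2 difference of -0.33 ± 0.13 was -0.22 without wild-type replicate 1. In both genes the groups did not overlap, and neither passed the threshold (adjusted p = 0.881 by edgeR for each). The genes named for each genotype comparison were picked for their small p values. How many of all genes lacked overlap between genotypes was not counted, so a lack of overlap adds no support. There 7 forebrain and dorsal telencephalon markers summed to 1206.5 to 1692 CPM in labelled knockout, against 1767 to 1804 CPM in wild type. The 3 intermediate progenitor markers summed to 427 to 496 CPM, against 516 to 571 CPM, and neither list overlapped. All other marker lists did overlap. Apical progenitor markers summed to 1953 to 2231 CPM in labelled knockout, against 1912 to 2606 CPM in wild type. Cortical neuron markers summed to 1683 to 2428 CPM, against 1575 to 2388 CPM. The part of these lists in the member differences was not tested.

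At E15.5 the smallest p values in labelled knockout belonged to Ntn4, Efna2 and Efna4. Ntn4 held 16.5, 16.4, 15.3, 13.5 and 16.9 CPM, against 16.1, 19.4, 18.1, 22.1 and 18.2 CPM in wild type, and the groups overlapped. Efna2 held 54.6, 52.7, 56.7, 55 and 61.4 CPM, against 66.3, 59.6, 67.8, 67.1 and 62.9 CPM in wild type, overlapping slightly. Efna4 held 15.7, 17.4, 14.1, 13.8 and 17.1 CPM, against 17.6, 15.6, 20.4, 21.2 and 20.1 CPM in wild type, also overlapping. Their log2 fold changes were -0.25 ± 0.09, -0.20 ± 0.07 and -0.27 ± 0.11 (SE), with an adjusted p of 1 by edgeR for each, and without labelled knockout replicates 3 and 4 the change of Efna4 was -0.18.

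In Tg(Kat6b) at E12.5, Robo4 held 7.83, 6.75, 7.18 and 7.84 CPM, against 9.27, 9.10, 10.4 and 11.8 CPM in wild type, with no overlap, and Ephb3 held 21.9, 15.7, 20.6 and 27.4 CPM, against 23.5, 23.7, 33.2 and 38.2 CPM. Epha7 held 69.3, 63.6, 59.8 and 65.7 CPM, against 86.1, 64.8, 83.9 and 76.3 CPM in wild type, and these groups overlapped, as did those of Ephb3. The log2 fold changes of Robo4, Ephb3 and Epha7 were -0.45 ± 0.15, -0.47 ± 0.17 and -0.26 ± 0.09 (SE), with an adjusted p of 0.724 by edgeR for each. The Ephb3 difference ran the other way in labelled knockout at the same age, as given above, and neither was called.

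At E15.5 the smallest p values in Tg(Kat6b) were those of Efnb1, Epha6 and Ephb3. Efnb1 held 210.4, 194, 198 and 190.4 CPM, against 176, 162, 172 and 163 CPM in wild type, with no overlap and a log2 fold change of 0.24 ± 0.13 (SE). Epha6 held 1.69, 1.80, 1.86 and 1.55 CPM, against 2.45, 2.72, 2.08 and 2.28 CPM, and Ephb3 15.2, 14, 15.46 and 12.3 CPM, against 16.7, 17.5, 15.9 and 17.6 CPM in wild type. Neither Epha6 nor Ephb3 values overlapped between the genotypes, with log2 fold changes of -0.46 ± 0.32 and -0.24 ± 0.18. Here too the genes were picked by p value, and the share of all genes without overlap was not counted. Unadjusted p values for these 3 genes were 0.0808, 0.171 and 0.184, and the adjusted p was 1 by edgeR for each.

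The age effect differed between labelled knockout and wild type for 0 of 40 members by edgeR, beside 0% of all genes, and between Tg(Kat6b) and wild type for 0 of 40, also beside 0%. DESeq2 and limma-voom also called 0 members. At an unadjusted p below 0.05 there were 5 members in the first (Dcc, Efna2, Efna4, Epha5 and Slit2) and 1 in the second (Unc5b), where the shares over all genes were 2.72% and 4.04%. The other 47 pathway genes likewise gave 0 calls in each genotype comparison by edgeR, with 2, 0, 3 and 0 genes at an unadjusted p below 0.05 in labelled knockout at E12.5 and E15.5 and Tg(Kat6b) at E12.5 and E15.5.

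Wild-type embryos of the backgrounds, which differ in batch as well as in strain, were compared at each age over all 32 libraries in 1 fit. At E15.5, 10 of the 40 members were called, all lower in FVBxBALB/c, beside 25.3% of all 16399 genes called and 11.3% called lower. The median log2 difference of the members was -0.32, and that of all genes -0.01. At E15.5 the endothelial markers summed to 59.9 to 66.9 CPM in FVBxBALB/c wild type, against 76.2 to 97.6 CPM in C57BL/6 wild type. Cajal-Retzius markers summed to 258 to 304 CPM, against 309 to 426 CPM. The sums were higher in FVBxBALB/c for the apical progenitor markers (1201 to 1364 CPM, against 1059 to 1170 CPM). They were higher for 3 microglia markers too (38.5 to 40.8 CPM, against 29.3 to 35.2 CPM). The 7 forebrain and dorsal telencephalon markers summed to 2593 to 3300 CPM in FVBxBALB/c wild type, against 2069 to 2589 CPM in C57BL/6. None of these lists overlapped, while all other marker lists did. Cortical neuron markers, for example, summed to 4183 to 4894 CPM in FVBxBALB/c wild type, against 4241 to 4687 CPM in C57BL/6 wild type. The part of any list in the member differences was not tested. At E12.5, 3 members were called, 1 higher and 2 lower, beside 12.8% of all genes. These counts hung on the libraries used: at E15.5, 5 members were called without FVBxBALB/c wild-type replicate 1 and 6 without replicate 4. At E12.5, 7 were called without C57BL/6 wild-type replicate 1 or FVBxBALB/c wild-type replicate 4, and 1 without C57BL/6 replicate 3 or 4 or FVBxBALB/c replicate 2 or 3.

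Unc5b had the smallest p at E15.5, with 13.6, 17.2, 16.2 and 17.3 CPM in FVBxBALB/c wild type, against 24.9, 26.1, 22.5, 25.1 and 24.3 CPM in C57BL/6 wild type. The groups did not overlap, and the log2 difference came to -0.61 ± 0.11 (SE), with an adjusted p of 2.21e-04 by edgeR. Ephb6 held 35.7, 33.1, 37.9 and 34.5 CPM, against 54.7, 50.9, 50.2, 53.8 and 54.9 CPM, a log2 fold change of -0.58 ± 0.13 (adjusted p = 0.0017 by edgeR), with no overlap. Epha2 held 2.45, 1.80, 1.87 and 1.88 CPM, against 3.57, 3.33, 2.61, 3.32 and 3.55 CPM in C57BL/6, and Ephb2 124, 134, 134 and 133 CPM, against 173, 193, 164, 178 and 186 CPM, with no overlap in either gene. Their log2 fold changes were -0.72 ± 0.18 and -0.44 ± 0.13 (SE), with adjusted p values of 0.00421 and 0.0109 by edgeR. These 4 calls held without any 1 library, and those of Efna2, Epha6, Ephb3, Ntn4, Robo4 and Unc5a (log2 -0.72 to -0.28) each did not.

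At E12.5 Efnb1 held 165, 251, 225 and 268 CPM in FVBxBALB/c wild type, against 357, 323 and 318 CPM in C57BL/6 wild type, with no overlap. The log2 difference came to -0.55 ± 0.13 (SE), with an adjusted p of 0.0071 by edgeR. Ephb6 held 20.1, 18.8, 18.7 and 15.2 CPM, against 17.8, 30.5 and 26.7 CPM, and the lowest C57BL/6 value lay within the FVBxBALB/c range; its log2 fold change of -0.47 was -0.29 without C57BL/6 replicate 3. Its call was lost without C57BL/6 replicate 3 or 4 or FVBxBALB/c replicate 2, 3 or 4. It was also lost with the replicate block (adjusted p = 0.0699 by edgeR). Robo2 held 163, 143, 155 and 99.9 CPM, against 101, 111 and 94.2 CPM, overlapping, and was the member called higher (0.46 ± 0.15, adjusted p = 0.0436 by edgeR), though not without any 1 of 6 of the 7 libraries. Unc5c held 63, 33.3, 51.8 and 31 CPM, against 29.7, 21.6 and 18 CPM, with no overlap and a log2 fold change of 0.94 ± 0.33. Its adjusted p of 0.0586 by edgeR did not pass, but it did without C57BL/6 replicate 1 (0.0354) or FVBxBALB/c replicate 4 (0.0267). With only these groups in the fit, none of the 3 calls held: the adjusted p by edgeR was 0.154 for Efnb1 (log2 -0.55), 0.302 for Ephb6 and 0.244 for Robo2. The 3 markers of intermediate progenitors summed to 412 to 468 CPM in FVBxBALB/c wild type, against 516 to 571 CPM in C57BL/6 wild type. All other marker lists overlapped between the wild types at this age. The part of any list in these differences was not tested.

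**Figure D5:**
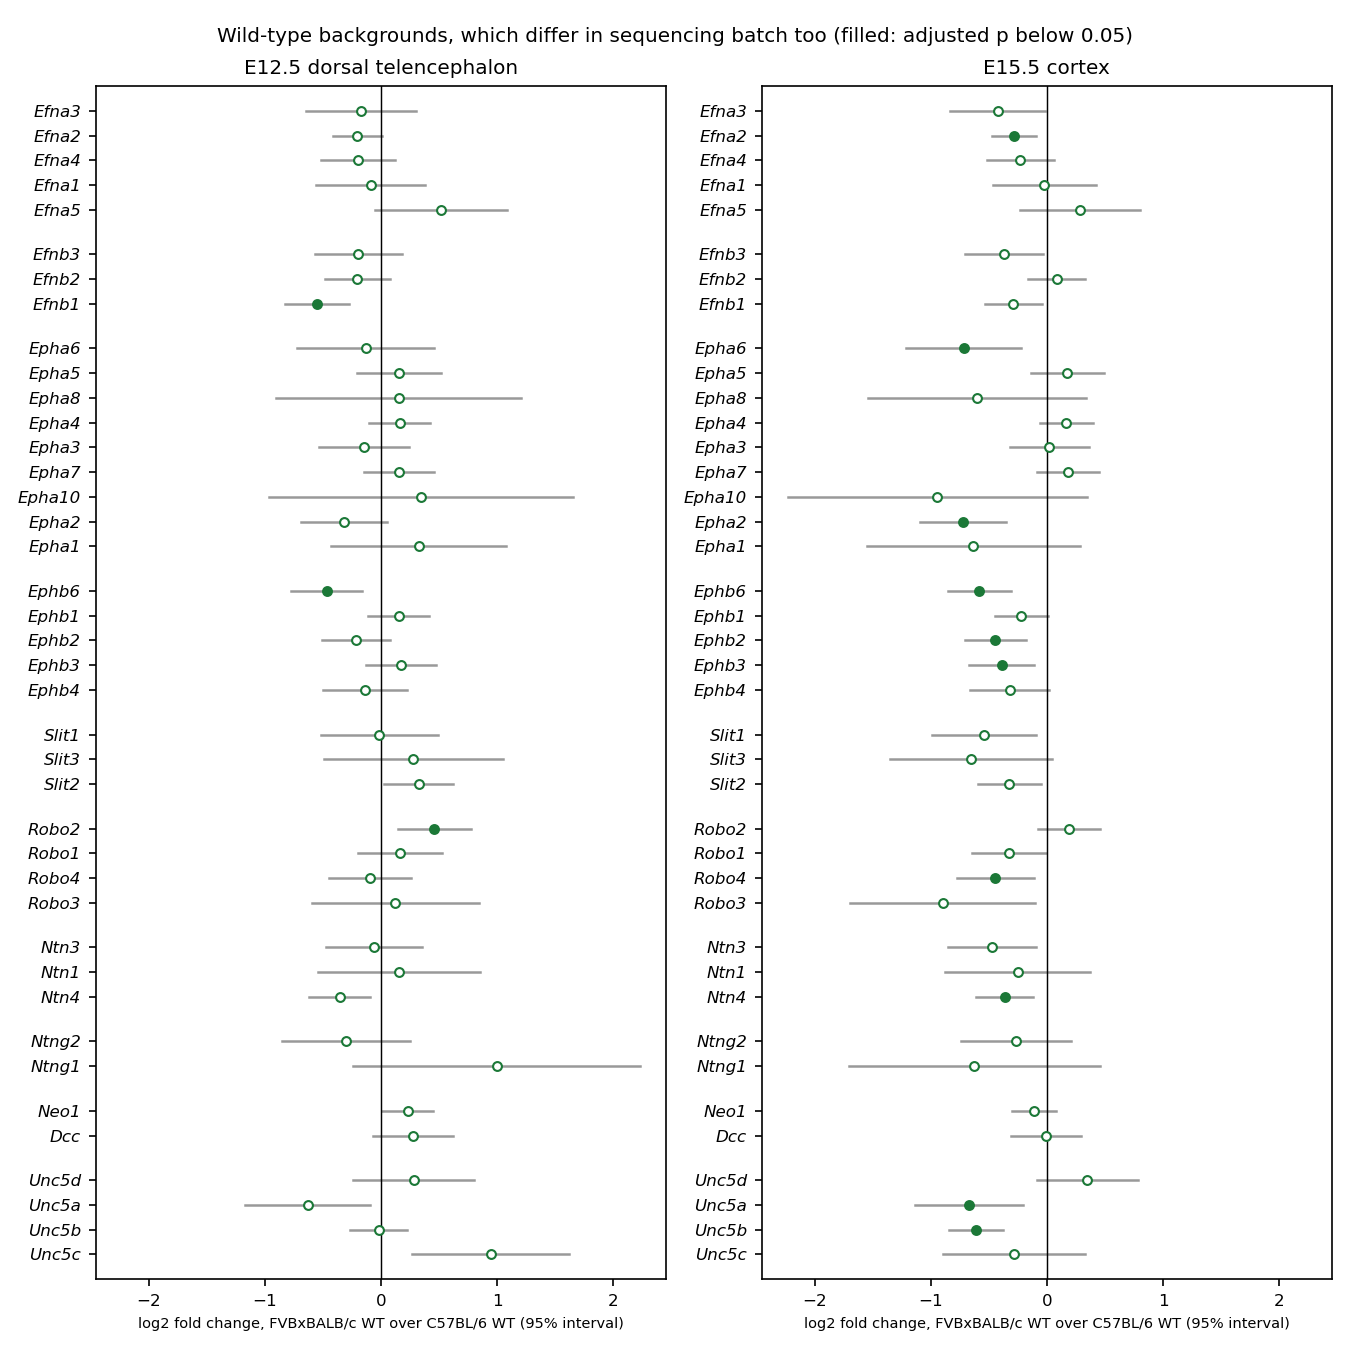
Log2 fold change with 95% interval (x axis) of FVBxBALB/c over C57BL/6 wild type for the 40 tested members at E12.5 (left) and E15.5 (right); filled points had an adjusted p below 0.05 by edgeR. At E15.5 the 10 filled points all lie below 0, and at E12.5 there are 3, with Robo2 above 0 and Efnb1 and Ephb6 below.

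The wild-type age effect differed between the backgrounds for 0 of 40 members by edgeR, beside 0.0305% of all genes. At an unadjusted p below 0.05 by edgeR there were 7 members, beside 6.62% of all genes. DESeq2 and limma-voom called 0 members. The library kit does not mark strand, so reads of overlapping genes cannot be told apart. Exons of Efna3, Efna4, Epha1, Epha6, Epha10, Ephb1, Ephb4, Ntn3, Ntng2, Unc5a and Unc5c overlap those of another annotated gene, by 33 bases (Ephb4 with Zan) to 558 bases (Ntng2 with 6530402F18Rik).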

How the data were processed

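RNA was measured in 32 libraries of mouse embryonic dorsal telencephalon or cortex. The authors deposited raw read counts per gene with a gene length in bases, and per the labels' protocols the libraries were paired-end, from a kit that does not mark strand. The submitters' processing notes name bcl2fastq, featureCounts and mm10; the aligner and annotation were not given in the sources used here. The 848 rows with no gene name were left out, 26331 named genes remained, and library totals of 10383066 to 49508669 counts limit the precision for the lowest genes.

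Counts were fitted per background with edgeR 4.0.16 (limma 3.58.1, R 4.3.3): TMM factors, a low-count filter of 10 counts (15 in all), robust quasi-likelihood dispersions and 1 mean per group, giving 16118 tested genes for C57BL/6 and 15556 for FVBxBALB/c. A further fit of all 32 libraries (16399 genes) compared the wild types. P values were adjusted by Benjamini-Hochberg over all genes of a fit, and an adjusted p below 0.05 was called. Standard errors follow from each log2 fold change and its F statistic, and intervals are 95%. The fits were tested on simulated data. CPM used totals of named genes times TMM factors over all libraries.

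Members with values per library were those with the 3 smallest p values per genotype comparison, the 8 largest rises and 8 largest falls among those called in all 4 age comparisons, and the 4 smallest p values per wild-type comparison; others are given for their role or because a library decided their value. Some items that these rules select are not reported here. The members and lists were chosen with earlier results of these data known. Alternatives were DESeq2 1.42.0, limma-voom, RLE factors, no filter, a threshold of 0.01, other sets of libraries, replicate or litter blocks, and each library left out; summing labelled knockout replicates 3 and 4 was chosen after seeing the data.

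In the labels, same-numbered labelled knockout and wild-type libraries of C57BL/6 share a litter, 1 litter per number at E15.5. At E12.5 replicates 3 and 4 of both genotypes come from 1 litter, so each group of 3 spans 2 litters. Same-numbered libraries' deviations from the group means correlated at -0.158 to 0.405 at E15.5 and -0.426 to 0.423 at E12.5. The labels do not say that FVBxBALB/c libraries came from separate embryos, so p values there measure the spread between libraries.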

Additional observations from a re-analysis of the deposited data

Results flagged for a closer look

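Of the members given per library, 25 genes were examined in 150 combinations of gene and group with 4 or 5 libraries, and 11 had 1 library far from the rest of its group; chance alone sets 1 in 20 apart. In Tg(Kat6b) at E12.5, replicate 1 held 379 CPM of Dcc, where the other 3 libraries held 250.2 to 258 CPM, and 12.7 CPM of Efna4, where the others held 17.7 to 17.9 CPM. In Tg(Kat6b) at E15.5, replicate 4 held 119 CPM of Ephb2, where the others held 136 to 138 CPM.

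In FVBxBALB/c wild type at E12.5, replicate 4 held 24.3 CPM of Efna4 (13.9 to 15.7 CPM in the others) and replicate 3 held 6.66 CPM of Epha2 (4.83 to 5.11 CPM). At E15.5, replicate 1 held 2.45 CPM of Epha2 (1.80 to 1.88 CPM) and 124 CPM of Ephb2 (133 to 134 CPM), and replicate 2 held 0.461 CPM of Epha1 (0.277 to 0.298 CPM).

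In C57BL/6 wild type at E15.5, replicate 3 held 2.61 CPM of Epha2 (3.32 to 3.57 CPM in the others) and 213 CPM of Epha5 (278 to 299 CPM), and replicate 1 held 4.73 CPM of Epha6 (3.6 to 3.9 CPM).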

How the results depend on the processing

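Under every alternative run, 0 members were called in the genotype comparisons, the interactions and the difference of wild-type age effects; over all genes these counts ran from 0 to 16. Age calls numbered 27 to 33 in labelled knockout, 24 to 30 in C57BL/6 wild type, 21 to 28 in Tg(Kat6b) and 22 to 28 in FVBxBALB/c wild type over the alternatives other than leaving out 1 library, and 29 to 32, 25 to 29, 23 to 30 and 24 to 27 over those. No called change turned its direction. Several E15.5 differences between labelled knockout and wild type that were not called did so, as given above. The wild-type comparisons depended most on the choices made. At E12.5, where 3 members were called, a threshold of 0.01 gave 1, DESeq2 5 and a fit of only the groups compared 0, and leaving out 1 library gave 1 to 7; all-gene calls were 2095, 203 with only those groups and 859 to 3323 with 1 library left out. At E15.5, where 10 were called, a threshold of 0.01 gave 3 and a fit of only the groups compared 20, and leaving out 1 library gave 5 to 9; all-gene calls were 4142, and 2372 to 5002 over the alternatives.

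With the replicate block or the litter block, 0 members were called in the labelled knockout comparisons, and the replicate block gave 0 in Tg(Kat6b), 31, 28, 27 and 27 in the age comparisons, and 2 and 9 between the wild types. Across ages and in FVBxBALB/c, libraries share only a number (correlations of -0.185 to 0.638 between genotypes); there the block lost the age calls of Efna5 (adjusted p = 0.0566 by edgeR) and Epha3 (0.0636) in labelled knockout and Ephb3 (0.0901) in C57BL/6 wild type. Depth limits the members of lowest CPM, such as Epha1, Epha6 and Epha10, most, and the cause of these shifts was not tested.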
